A study of Tachycineta bicolor with 12 samples.

Results

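The spleen and the blood of the tree swallow (Tachycineta bicolor) were set against each other, to describe how the genes of leukocytes, thrombocytes and erythroid cells divide between an immune organ and the circulation. Of the 12 libraries of the series, the 4 made from spleen and from trunk blood were used, 2 from each tissue. RNA came from 2 adult females, 1 sampled while establishing a territory and 1 while incubating, and was pooled in equal molar amounts, so that each tissue is 1 pool. The labels give no treatment. The same pool was sequenced on NextSeq and on MiSeq, and the spread between platforms is therefore technical. Neither tissue has a biological replicate, so differences are given by size, without tests or p-values. Because each pool mixes both birds, the females and their breeding stages cannot be told apart.

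Bird blood differs from mammalian blood in ways that matter for RNA. The red cells of birds keep their nucleus and go on carrying transcripts, and the thrombocytes, which do the work of platelets, are nucleated cells as well. The spleen holds lymphocytes and plasma cells in its white pulp, while the macrophages of its red pulp take up worn red cells and return their iron. The spleen was measured with whatever blood it held, and in pooled tissue RNA fewer cells of a type and less RNA per cell cannot be told apart.

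Total counts were 15484468 and 1011756.5 in the spleen libraries (NextSeq and MiSeq) and 30082500.5 and 1801740 in the blood libraries, so that the NextSeq libraries carry most of the precision. Counts of a tissue were summed over platforms, the 9 rows named as hemoglobin subunits were set aside, and the rest was scaled to CPM, counts per 1000000 counts of the tissue. Of the other 14899 protein-coding segments, 12732 reached 1 CPM in spleen or blood and were compared. Of these, 9173 reached 1 CPM in both tissues, 3249 in spleen alone and 310 in blood alone. The scale compares a gene between the tissues. It does not compare different genes, because segment lengths are not used here. A difference is given as the log2 ratio of spleen over blood with 1 CPM added to both, and a segment was called at 4-fold or more, a log2 ratio of 2 or beyond.

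Spleen had the broader profile. Of the 12732 segments, 5174 were called higher in spleen (40.6%) and 921 higher in blood (7.23%), and the median log2 ratio was 1.44 (1.44 on NextSeq and 1.45 on MiSeq). Every count for a gene list below is to be read against these percentages and this median. The split depended on the scaling. With TMM factors 3369 segments were higher in spleen and 2125 higher in blood, so that spleen took 61.3% of the calls against 84.9% on the CPM scale. TMM moved the log2 ratio of an abundant segment by 1.25 toward blood, so members that lie less than this above 0 change side with it. With log2 ratios centred on their median the numbers were 2368 and 2609, and spleen took 47.6%. Of the 247 list members called in either direction, all 247 had the same direction on both platforms and 241 passed 4-fold on both.

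**Figure D1:**
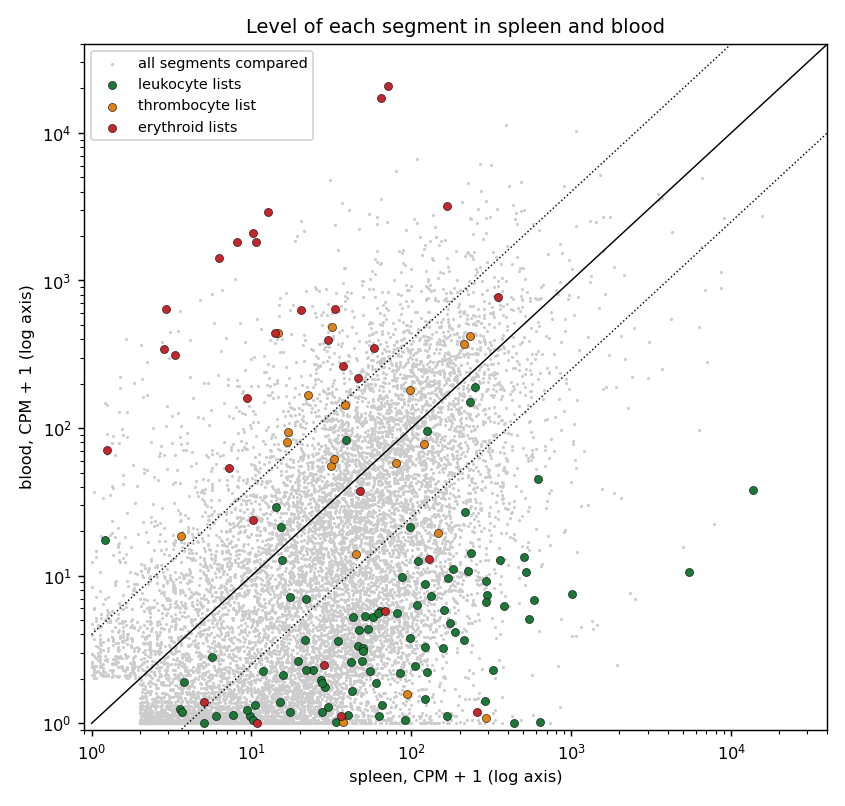
Level of every compared segment in spleen (x axis) and blood (y axis), in CPM with 1 added, on log axes. The solid line marks equal levels and the dotted lines 4-fold, leukocyte members lie mostly below the lower dotted line, 21 of 31 erythroid members lie above the upper one, and thrombocyte members lie on both sides.

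Red-cell genes lay on the side of blood. Hemoglobin subunits, the oxygen carriers, took 44.8% of all counts in the blood NextSeq library and 45.9% in the blood MiSeq library. In spleen they took 0.145% on NextSeq and 0.193% on MiSeq. The spleen share was thus 0.330% of the blood share with the platforms summed, 0.324% on NextSeq and 0.421% on MiSeq. The difference is far larger than the spread between platforms.

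The 9 hemoglobin rows did not all follow this. The major row of subunit alpha-D stood at 718 CPM of all counts, hemoglobin included, in spleen and 169450.4 in blood, and the row of subunit beta at 393 and 273157. Spleen thus held 0.424% of the blood level of the first and 0.144% of the second. Another pair of rows, also named alpha-D, was higher in spleen. The first stood at 232 in spleen and 65.2 in blood, a ratio of 3.55 (95% counting interval 3.37 to 3.75), and the second at 106 and 13.9, a ratio of 7.63 (6.87 to 8.48). Per non-hemoglobin counts, the scale used for the other genes, these ratios were 1.96 (1.86 to 2.07) and 4.21 (3.79 to 4.68). On MiSeq alone the same rows stood at 320.2 and 190.3 in spleen and at 86.9 and 24.4 in blood, again higher in spleen. This pair made up 22.8% of the hemoglobin counts of spleen and 0.0176% of those of blood. Without it the spleen share of hemoglobin was 0.255% of the blood share. Rows of the same protein name can share reads, and how the authors' counting divided them was not tested. The row of subunit pi, known as an embryonic form in the chicken, had 1 count in spleen and 677 in blood. All intervals given here are exact binomial intervals on the counts, rounded to whole numbers, and cover counting error only.

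The proteins that build the red-cell membrane and its skeleton followed hemoglobin. Of 19 matched members of the erythroid membrane list, all compared, 13 were higher in blood (68.4%, against 7.23% of all segments) and 5 higher in spleen, and the median log2 ratio was -4.94. Carbonic anhydrase 2 (CA2), which hydrates carbon dioxide, had the largest log2 ratio toward blood of all segments compared when 1 CPM was added. Without this addition its fold of 296 (279.9 to 314) lay below that of the kinase WNK4 at 624 (356 to 1366). The level of CA2 was 69.8 CPM on NextSeq and 82.7 CPM on MiSeq in spleen, and 20754 and 23638 CPM in blood, a log2 ratio of -8.19. Ankyrin-1 (ANK1), which ties the spectrin skeleton to the membrane, was at 62.4 CPM on NextSeq and 74.3 CPM on MiSeq in spleen, and 17410.0 and 15387 CPM in blood. Band 3 (SLC4A1), the anion exchanger that ankyrin-1 binds, was at 11.5 CPM on NextSeq and 14.9 CPM on MiSeq in spleen, and 2949.7 and 2504 CPM in blood. In each case the blood libraries lay more than 100-fold above the spleen libraries and the platforms did not overlap between tissues.

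Other members of the same complexes had ratios of like size. Protein 4.2 (EPB42), which sits on band 3, was at 9.29 CPM in spleen and 2080.5 CPM in blood. The Rh-associated ammonium transporter (RHAG) was at 9.68 CPM in spleen and 1825 CPM in blood. The Kell glycoprotein (KEL), a blood group antigen in humans, was at 5.22 CPM in spleen and 1428 CPM in blood. Beta-adducin (ADD2), which caps actin filaments of the skeleton, was at 1.91 CPM in spleen and 636 CPM in blood. Protein 4.1 (EPB41), which joins spectrin to actin, departed from them at 167 CPM in spleen and 3199 CPM in blood, so that spleen held 5.23% of its blood level.

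Expressed as a percentage of the blood level, the 21 erythroid members higher in blood are described on either side of 1%, with the platforms summed. Low percentages follow from the 4-fold call by which these members were picked. The 1% line falls within a gap in the values and serves description only. On MiSeq alone the gap between these groups was narrower, from 1.28% for dematin to 2.47% for PIM1. For 11 of them the spleen level was 0.301% to 0.735% of the blood level (median 0.387%). These are ADD2, CA2, the translocator TSPO2, ANK1, KEL, hemogen (HEMGN), SLC4A1, EPB42, RHAG, dematin (DMTN) and the repressor GFI1B. For the other 10 it was 2.93% to 20.8% (median 6.39%). These are the kinase PIM1, the porphyrin transporter ABCB6, the nucleoside transporter SLC29A1, EPB41, NPRL3, LDB1, histone H5, KLF3, basigin (BSG) and LMO2. TSPO2 rests on few reads in spleen, and its interval of 0.0947% to 0.893% is wider than that whole lower range. On the same scale, counts per non-hemoglobin counts, hemoglobin in spleen was at 0.182% of blood (0.179% on NextSeq and 0.228% on MiSeq). The value over both platforms lay below that of each of the 21 members but inside the interval of TSPO2.

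**Figure D2:**
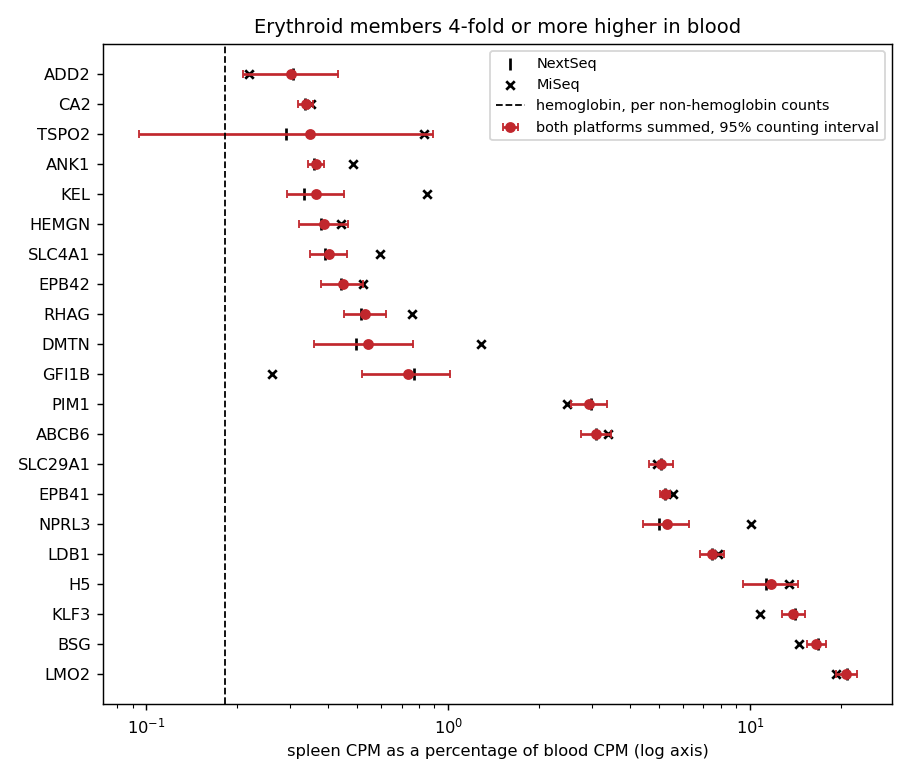
Spleen level as a percentage of the blood level (log axis) for the 21 erythroid members called higher in blood. Red points are summed platforms with 95% counting intervals, ticks are NextSeq, crosses are MiSeq, and the dashed line is hemoglobin on the same scale at 0.182%. With the platforms summed, a gap separates the 11 members up to 0.735% from the 10 members from 2.93%. The gap is narrower on MiSeq.

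The other direction was seen for 5 membrane members, which were higher in spleen. Which cells their transcripts came from was not tested. Aquaporin-1 (AQP1), a water channel of red cells and endothelium in mammals, was at 258 CPM in spleen and 0.199 CPM in blood. Tropomodulin-1 (TMOD1), which caps actin filaments, was at 35.3 CPM in spleen and 0.114 CPM in blood, whereas tropomodulin-4 (TMOD4), chosen after its values were seen, was at 0.516 CPM in spleen and 222 CPM in blood. The glucose transporters SLC2A1 and SLC2A3 were at 27.6 and 128 CPM in spleen and at 1.48 and 11.9 CPM in blood, respectively. Glycophorin-C (GYPC) was at 9.87 CPM in spleen and had no count in blood, which makes it at least 57.8-fold higher in spleen against a floor of 3 counts over both blood libraries. Spectrin was matched only under its non-erythrocytic names, chosen after their values were seen. The alpha chain (SPTAN1) was at 315 CPM in spleen and 6040.1 CPM in blood, and the beta chains SPTBN4 and SPTBN5 were at 1.06 and 0.243 CPM in spleen and at 215 and 65.3 CPM in blood, respectively. Aquaporin-3 (AQP3), picked in the same way, was at 3.76 CPM in spleen and 739.6 CPM in blood, opposite to AQP1.

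Among the regulators of red-cell formation, 8 of 12 matched members were higher in blood (66.7%) and 1 was higher in spleen, with a median log2 ratio of -2.86. Hemogen (HEMGN), a nuclear protein of erythroid cells, was at 6.73 CPM on NextSeq and 12.9 CPM on MiSeq in spleen, and 1772 and 2913 CPM in blood. GFI1B, a repressor needed for red cells and platelets in mice, was at 2.31 CPM in spleen and 314 CPM in blood. LDB1 and LMO2, which bridge DNA-bound factors in the same complex, were at 29.3 and 45.1 CPM in spleen and at 391 and 217 CPM in blood, respectively. PIM1, a survival kinase, was at 12.96 CPM in spleen and 443 CPM in blood. BCL11A, a hemoglobin repressor that B cells and dendritic cells also use in mammals, was the member higher in spleen, at 67.6 CPM in spleen and 4.81 CPM in blood.

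GATA1, the factor that names the erythroid program, did not differ 4-fold. Its level was 32.9 CPM on NextSeq and 253 CPM on MiSeq in spleen, and 27.6 and 192 CPM in blood, a log2 ratio of 0.25 on NextSeq and 0.39 on MiSeq. Its MiSeq level was 7.69 times its NextSeq level in spleen and 6.97 times in blood, so that the platforms differed far more than the tissues. Of 6093 segments with at least 100 counts in each tissue, 11 were 4-fold or more higher on MiSeq in both tissues and 0 were so on NextSeq. Histone H5, the linker histone of bird red cells, was at 5.56 CPM on NextSeq and 15.8 CPM on MiSeq in spleen, and 49.1 and 118 CPM in blood, higher in blood on both platforms. SOX6, which acts late in red-cell maturation in mice and was chosen after its values were seen, was at 2.49 CPM in spleen and 457 CPM in blood.

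The heme and iron genes split by step. Of 16 matched members, 8 were higher in blood (50%) and 3 higher in spleen (18.8%). With TMM factors, and likewise with centred ratios, 12 were higher in blood and 1 higher in spleen. Transferrin receptor 1 (TFRC), which brings iron into cells, was at 106 CPM on NextSeq and 143 CPM on MiSeq in spleen, and 6637 and 6488 CPM in blood. Ferritin heavy chain (FTH1), the iron store, was at 1068 CPM in spleen and 10273 CPM in blood. NCOA4, which delivers ferritin for breakdown and was chosen after its values were seen, was at 271 CPM in spleen and 4036 CPM in blood. TFRC was higher in blood by a factor of 61.3 (58.5 to 64.3) and FTH1 by 9.62 (9.47 to 9.77).

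Along the heme pathway, the first enzyme in its general form (ALAS1) was higher in spleen, at 48.6 CPM in spleen and 5.01 CPM in blood, a call lost with TMM and with centring. Its red-cell form (ALAS2), and PPOX of the same pathway, had no matched segment and were not compared. Ferrochelatase (FECH), which inserts the iron in the last step, was higher in blood, at 11.7 CPM in spleen and 273 CPM in blood, and so was uroporphyrinogen decarboxylase (UROD), at 8.26 CPM in spleen and 70.9 CPM in blood. Other enzymes of the pathway were closer together. ALAD was at 12.5 CPM in spleen and 26.3 CPM in blood. CPOX was at 33.7 CPM in spleen and 96.3 CPM in blood. UROS was at 29.1 CPM in spleen and 22.5 CPM in blood, none of them past 4-fold. A segment named transmembrane protein 14C-like, after a porphyrin carrier of mitochondria, was at 58.6 CPM in spleen and 1105 CPM in blood.

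The heme breakdown genes compared were divided between the tissues. Heme oxygenase 1 (HMOX1), which opens the heme ring to biliverdin, was at 890.4 CPM on NextSeq and 1076 CPM on MiSeq in spleen, and 18.4 and 25.7 CPM in blood, a log2 ratio of 5.51. Biliverdin reductase A (BLVRA), which takes the next step to bilirubin, was at 20.7 CPM on NextSeq and 25.7 CPM on MiSeq in spleen, and 846 and 981 CPM in blood, a log2 ratio of -5.28. HMOX1 and BLVRA, enzymes of successive steps, thus lay in opposite directions on both platforms. The other biliverdin reductase of the list (BLVRB) had no matched segment and was not compared. The heme exporter FLVCR1 was higher in spleen at 12.9 CPM in spleen and 1.25 CPM in blood, a call also lost with TMM and with centring. Ferroportin (SLC40A1), the iron exporter of macrophages, was at 232 CPM in spleen and 148 CPM in blood and did not pass 4-fold.

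Genes that keep mature red cells working, or clear their organelles, leaned to blood. Of 25 matched members of this list, 13 were higher in blood (52%) and 7 higher in spleen (28%), with a median log2 ratio of -2.14. FOXO3, a factor of late red-cell maturation in mice, was at 13.9 CPM in spleen and 686 CPM in blood. BNIP3L, which marks mitochondria for removal, was at 37.3 CPM in spleen and 1213 CPM in blood. MXI1, an antagonist of MYC, was at 25.3 CPM in spleen and 849.5 CPM in blood. The nucleotidase NT5C3A, which clears pyrimidines from degraded RNA, was at 62.3 CPM in spleen and 1290.0 CPM in blood. The ubiquitin enzymes UBE2H, YOD1 and FBXO7 had log2 ratios of -3.60, -5.36 and -2.64. Peroxiredoxin-1 (PRDX1), a peroxide scavenger, was at 642 CPM in spleen and 759.7 CPM in blood and did not pass 4-fold.

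Several enzymes of red-cell metabolism went the other way. Catalase (CAT) was at 107 CPM in spleen and 1.71 CPM in blood. Hexokinase-1 (HK1) was at 97.3 CPM in spleen and 18.4 CPM in blood. PGD, of the pentose phosphate pathway, was at 207 CPM in spleen and 45.02 CPM in blood. The peroxidase GPX4 was at 46.1 CPM in spleen and 9.42 CPM in blood, while superoxide dismutase SOD1 was higher in blood at 98.7 CPM in spleen and 439.5 CPM in blood. Ornithine aminotransferase (OAT) was at 199 CPM in spleen and 15.3 CPM in blood. Adenosine deaminase (ADA) was at 66.6 CPM in spleen and 3.501 CPM in blood. The inositol phosphate kinase IPPK was at 35.4 CPM in spleen and 2.82 CPM in blood. The list had 4 members higher in spleen and 16 higher in blood under TMM, and 3 and 16 under centring. HK1, PGD and GPX4 lost their calls under both, and IPPK with centring.

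The thrombocyte list had members in both directions. Of 19 matched members, 6 were higher in blood (31.6%, against 7.23% of all segments), 4 were higher in spleen (21.1%, against 40.6%) and 9 did not pass 4-fold. Its median log2 ratio was -0.86, against 1.44 for all segments. With TMM factors 12 members were higher in blood and 3 higher in spleen. With hemoglobin rows kept in the totals the numbers were 3 and 5, and the median was about 0, so that the direction of the list as a whole depends on the scale.

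The receptor for von Willebrand factor and its partners lay in blood. The beta chain of glycoprotein Ib (GP1BB) was at 30.8 CPM on NextSeq and 32.7 CPM on MiSeq in spleen, and 476 and 560.4 CPM in blood, a log2 ratio of -3.92. Its alpha chain, matched under a -like name (GP1BA), was at 16 CPM in spleen and 93.04 CPM in blood. Glycoprotein V (GP5) was at 15.8 CPM in spleen and 79.6 CPM in blood. Glycoprotein IX (GP9) was at 2.64 CPM in spleen and 17.6 CPM in blood. The chains of this receptor all passed 4-fold on the CPM scale, and higher in blood was their direction on both platforms. With hemoglobin in the totals their log2 ratios lay between -3.06 and -1.42, still toward blood, and 1 of the 4 passed 4-fold. Tubulin beta-1 (TUBB1), which forms the marginal band of platelets, was at 13.6 CPM on NextSeq and 14.4 CPM on MiSeq in spleen, and 441 and 444 CPM in blood. Its log2 ratio of -4.92 was the largest toward blood in the list. Which blood cells its transcripts came from was not tested.

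Other thrombocyte genes were nearer to equal on the CPM scale. Integrin beta-3 (ITGB3), a chain of the fibrinogen receptor, was at 37.5 CPM in spleen and 144 CPM in blood, just under 4-fold with a log2 ratio of -1.91. Coagulation factor XIII A chain (F13A1), which cross-links fibrin, was at 230.3 CPM in spleen and 419 CPM in blood. Pleckstrin (PLEK) was at 212 CPM in spleen and 370.0 CPM in blood. CD9, thromboxane synthase (TBXAS1) and the ADP receptor P2RY1 had log2 ratios of -0.88, -0.90 and -0.83. With TMM factors, and likewise with centred ratios, ITGB3, F13A1, PLEK, CD9, TBXAS1 and P2RY1 passed 4-fold toward blood. P-selectin (SELP), of platelet granules and of endothelium, was at 79.5 CPM in spleen and 56.7 CPM in blood.

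The other direction was seen for 4 thrombocyte members, which were higher in spleen. Thrombospondin-1 (THBS1) was at 290.2 CPM in spleen and 0.0854 CPM in blood. The light chain MYL9, of smooth muscle and platelets, was at 92.8 CPM in spleen and 0.569 CPM in blood. Von Willebrand factor (VWF), which endothelium makes too, was at 146 CPM in spleen and 18.5 CPM in blood. A segment named P2Y purinoceptor 12-like was at 36.3 CPM in spleen and 0.0285 CPM in blood. The blood levels of THBS1 and of this segment rest on 1.5 and 0.5 counts, respectively. Of 25 vessel and stroma members, 19 were also higher in spleen (76%, against 40.6% of all segments). The other 6 did not pass 4-fold, and 2 members had more CPM in blood. Cadherin-5 (CDH5) and smooth muscle actin (ACTA2), both among the 19, had log2 ratios of 8.08 and 8.12. The part of vessel and stroma cells in the thrombocyte result was not tested.

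**Figure D3:**
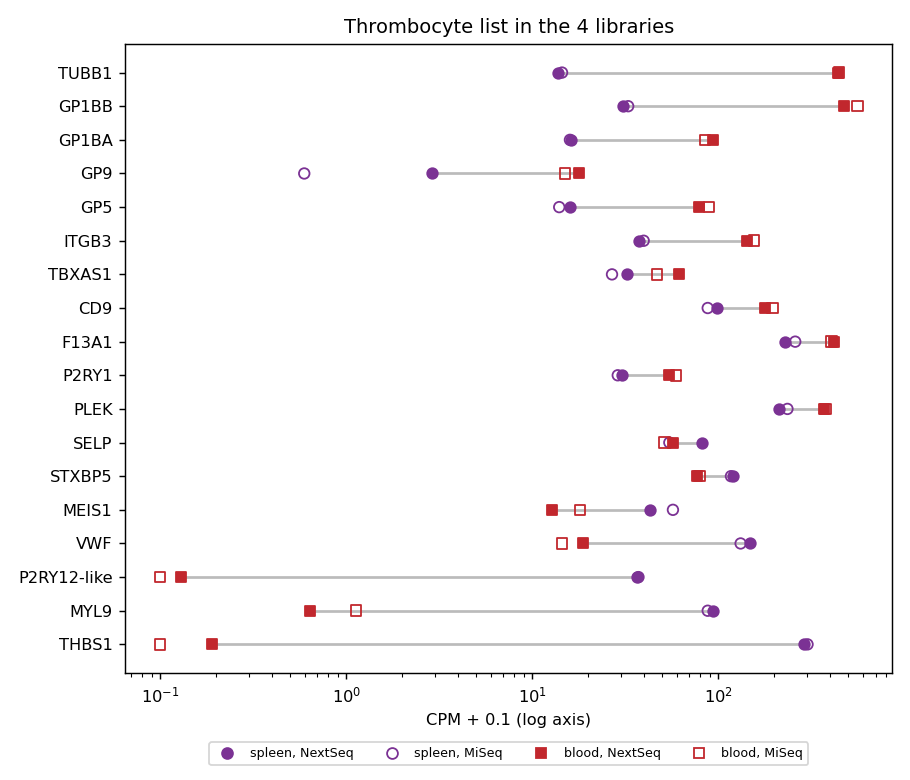
CPM with 0.1 added (log axis) of 18 thrombocyte members in the 4 libraries, ordered by log2 ratio. Circles are spleen, squares are blood, filled symbols are NextSeq, open symbols are MiSeq and grey lines join the summed levels. Tubulin beta-1 and the glycoprotein Ib chains lie higher in blood, thrombospondin-1, MYL9 and P2RY12-like higher in spleen.

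Leukocyte genes lay in spleen. Of 138 symbols in 8 leukocyte lists, 101 were matched and 96 compared. Of these, 82 were higher in spleen (85.4%, against 40.6% of all segments) and 1 was higher in blood (1.04%, against 7.23%). The median log2 ratio was 3.97, 2.53 above that of all segments, and blood held a median of 3.37% of the spleen level. CD45 (PTPRC), the phosphatase that marks leukocytes in general and was chosen after its values were seen, was at 2264 CPM on NextSeq and 2066 CPM on MiSeq in spleen, and 137 and 126 CPM in blood, so that spleen was higher by a factor of 16.6 (15.9 to 17.3). With TMM factors 71 of the 96 members were higher in spleen and 3 higher in blood, and with centred ratios 61 and 3.

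**Figure D4:**
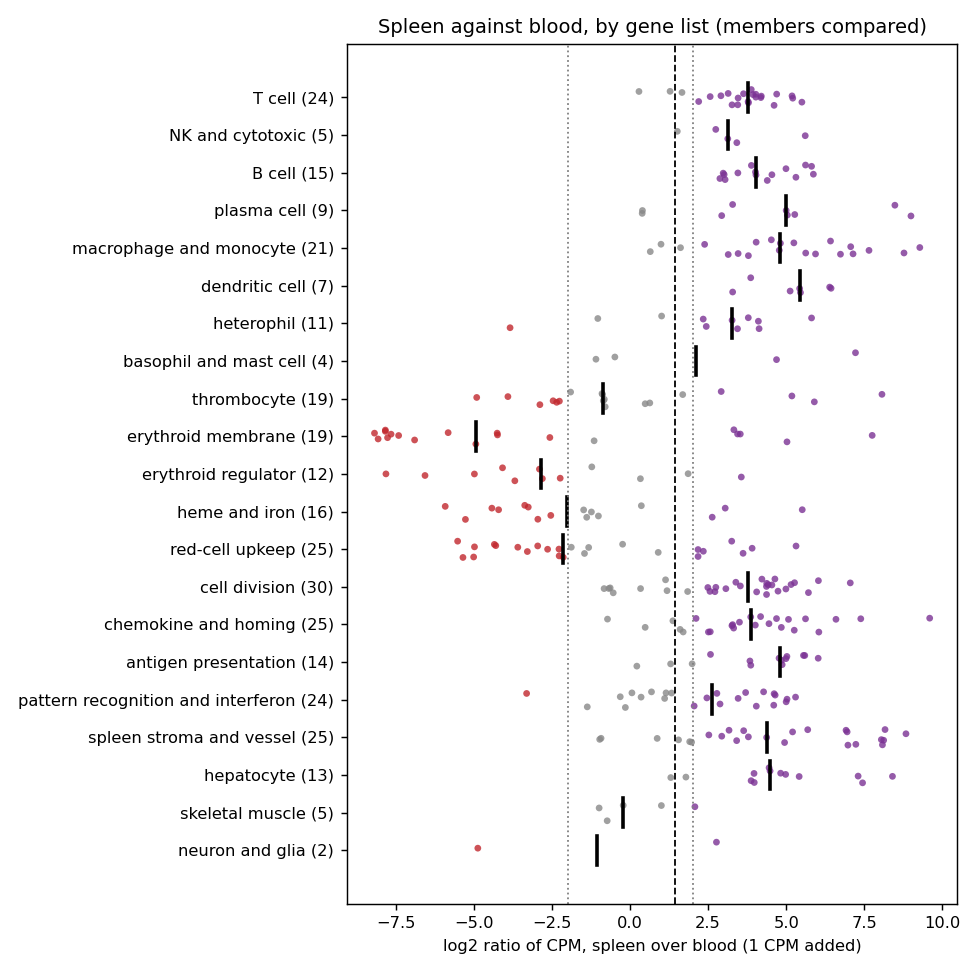
Log2 ratio of spleen over blood (1 CPM added) for each compared member of the 21 lists, with the number compared in brackets. Black bars are list medians, the dashed line is the median of all segments at 1.44 and dotted lines mark 4-fold. Medians of the leukocyte lists lie to the right of the dashed line, erythroid, heme and upkeep lists to its left.

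T cell genes lay in spleen. Of 24 members compared, 21 were higher in spleen (87.5%) and 0 higher in blood, and blood held a median of 5.43% of the spleen level, against 3.56% for the B cell list. This order was not tested. CD3 epsilon (CD3E), a signalling chain of the T cell receptor, was at 129 CPM on NextSeq and 157 CPM on MiSeq in spleen, and 6.21 and 6.67 CPM in blood. The costimulatory receptor ICOS was at 172 CPM in spleen and 3.76 CPM in blood. The adhesion receptor CD96 was at 121 CPM in spleen and 2.31 CPM in blood. The adaptor SH2D1A was at 186 CPM in spleen and 3.13 CPM in blood. The coreceptors CD4 and CD8A were at 45.9 and 27.8 CPM in spleen and at 3.301 and 0.768 CPM in blood, respectively.

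The 3 members that did not pass 4-fold had different roles. The zeta chain (CD247), which carries the signal of the same receptor, was at 14.4 CPM on NextSeq and 15.8 CPM on MiSeq in spleen, and 11.7 and 12.8 CPM in blood, a log2 ratio of 0.28, below the median of all segments. The factors TCF7 and GATA3 had log2 ratios of 1.28 and 1.66. Of the cytotoxic list, 7 of 13 symbols were matched, 5 were compared and 4 were higher in spleen. Granzyme A (GZMA), a killing protease, was at 23.4 CPM in spleen and 1.28 CPM in blood. The interleukin-2 receptor beta chain (IL2RB) was at 64.5 CPM in spleen and 0.342 CPM in blood. The transcription factors EOMES and RUNX3 were at 8.74 and 6.65 CPM in spleen and at 0.114 and 0.142 CPM in blood, respectively. With centred ratios 1 of the 5 passed 4-fold.

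All 15 matched B cell members were higher in spleen, with log2 ratios of 2.88 to 5.87 and a median of 4.03. CD79A, a signalling chain of the B cell receptor, was at 225 CPM on NextSeq and 212 CPM on MiSeq in spleen, and 9.67 and 10.3 CPM in blood. The adaptor BLNK was at 294 CPM in spleen and 6.43 CPM in blood. The kinase BTK, which acts beside it, was at 216 CPM in spleen and 25.9 CPM in blood. PAX5, which holds B cell identity, was at 124 CPM in spleen and 1.22 CPM in blood. CIITA, the switch for MHC class II genes, was at 291 CPM in spleen and 8.17 CPM in blood. Blood held 12% of the spleen level of BTK, the highest such share in the list, and myeloid cells and platelets of mammals use this kinase too. With TMM factors 12 of the 15 passed 4-fold, and with centred ratios 11.

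Antibody genes were strongly skewed to spleen. Of 9 plasma cell members, 7 were higher in spleen and 2 did not pass 4-fold, with a median log2 ratio of 5.02 on NextSeq and 4.63 on MiSeq. The leading segment named Ig lambda chain V-1 region, listed under the light chain symbol IGLL1, was at 13752 CPM on NextSeq and 11414 CPM on MiSeq in spleen, and 37.3 and 32.3 CPM in blood. It is 1 of 11 segments of that name, which may share reads. The J chain (JCHAIN), which joins the units of secreted IgM and IgA, was at 5436 CPM on NextSeq and 5513 CPM on MiSeq in spleen, and 9.88 and 5.64 CPM in blood. A segment named immunoglobulin lambda-like polypeptide 5 (IGLL5), chosen after its values were seen, was at 428 CPM in spleen and 25.8 CPM in blood. PRDM1 and IRF4, which drive the switch to antibody secretion, were at 59.2 and 83.9 CPM in spleen and at 0.882 and 1.195 CPM in blood, respectively. The secretory stress genes XBP1 and DERL3 were at 250.3 and 123 CPM in spleen and at 190.3 and 94.3 CPM in blood, respectively, close to level.

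Macrophage genes had the largest median ratio of the leukocyte lists with more than 10 members compared. Of 21 members, 18 were higher in spleen (85.7%), 3 did not pass 4-fold and 0 were higher in blood, with a median log2 ratio of 4.81. The scavenger receptor MARCO was at 432 and 509.5 CPM in the spleen libraries and had no count in either blood library, which makes it at least 2558-fold higher in spleen. TIMD4, a receptor for dying cells, was at 639 CPM in spleen and 0.0285 CPM in blood, the latter from 0.5 counts. MERTK, a kinase of the same clearance, was at 286 CPM in spleen and 0.427 CPM in blood. Legumain (LGMN), a lysosomal protease, was at 1006 CPM in spleen and 6.52 CPM in blood. LY86, a partner of toll-like receptors, was at 620.0 CPM in spleen and 43.9 CPM in blood. A segment named macrophage mannose receptor 1-like (MRC1) was at 587 CPM in spleen and 5.86 CPM in blood.

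The chains of complement C1, which tags particles for uptake, were all higher in spleen. C1QA was at 321 CPM in spleen and 1.28 CPM in blood. C1QB was at 380.0 CPM in spleen and 5.21 CPM in blood. C1QC was at 544 CPM in spleen and 4.098 CPM in blood. The proteases C1s and C1r, which complete the complex, were among the 12 largest ratios toward spleen. C1S was at 576 CPM in spleen and 0.142 CPM in blood. C1R was at 451 CPM in spleen with no count in blood, at least 2638-fold higher. SPIC, a factor of the red-pulp macrophages that recycle iron in mice and chosen after its values were seen, was at 237 CPM in spleen and 0.0569 CPM in blood. It stood on the side of HMOX1, whereas ferroportin was nearly level.

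Dendritic cell and antigen presentation genes followed. Of 7 dendritic members compared, 7 were higher in spleen, with a median log2 ratio of 5.43. IRF8, a factor for dendritic cells and macrophages, was at 292 CPM in spleen and 5.66 CPM in blood. The receptor FLT3, which supports their growth, was at 121 CPM in spleen and 0.455 CPM in blood. ZBTB46 and ZNF366, factors of conventional dendritic cells in mammals, were at 105 and 90.6 CPM in spleen and at 1.45 and 0.0569 CPM in blood, respectively. Of 14 presentation members, 11 were higher in spleen (78.6%). The invariant chain of MHC class II (CD74) was at 6436 CPM on NextSeq and 4706 CPM on MiSeq in spleen, and 97.5 and 74.4 CPM in blood, and beta-2-microglobulin (B2M), the light chain of class I, was at 361 CPM in spleen and 6.72 CPM in blood. The chaperone calreticulin (CALR), which many cells use, was at 779 CPM in spleen and 317 CPM in blood. PDIA3, of the same loading complex, was at 679 CPM in spleen and 113 CPM in blood.

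Heterophils, the bird counterpart of neutrophils, were covered thinly. Of 22 symbols 12 were matched and 11 compared, of which 8 were higher in spleen, 1 was higher in blood and 2 did not pass 4-fold. The subunits of the phagocyte oxidase NCF1 and NCF4, which macrophages and B cells also use in mammals, were at 168 and 108 CPM in spleen and at 8.65 and 5.29 CPM in blood, respectively. A segment named eosinophil peroxidase-like (EPX) was at 61.6 CPM in spleen and 0.114 CPM in blood. The member higher in blood was a segment named lysozyme g-like (LYG2), at 0.194 CPM on NextSeq and 0.495 CPM on MiSeq in spleen, and 16.1 and 23.1 CPM in blood. The gelatinase MMP9, of neutrophil granules in mammals, was at 13.3 CPM in spleen and 28.4 CPM in blood, a log2 ratio of -1.04 that did not pass 4-fold but with TMM factors did.

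Basophil and mast cell members, 4 of 8 matched, divided into 2 higher in spleen and 2 that did not pass 4-fold. The receptor KIT was at 165 CPM in spleen and 0.114 CPM in blood. IL1RL1, the interleukin-33 receptor, was at 41.7 CPM in spleen and 0.655 CPM in blood. Histidine decarboxylase (HDC), which makes histamine, was at 37.8 CPM in spleen and 81.9 CPM in blood. HDC passed 4-fold toward blood with TMM factors and with centring. GATA2 was at 14.3 CPM in spleen and 20.5 CPM in blood. HDC and GATA2 were the only leukocyte members besides LYG2 and MMP9 with more CPM in blood than in spleen among the 96 compared.

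Several homing ligands were seen in spleen alone, while their receptors had counts in both tissues. Of 25 members compared, 20 were higher in spleen (80%) and 0 higher in blood. CXCL12, which retains lymphocytes and progenitors, was at 91.5 and 159 CPM in the spleen libraries with no count in blood, at least 559.9-fold higher. Its receptor CXCR4 was at 189.5 CPM in spleen and 5.64 CPM in blood. CXCL13, which draws B cells into follicles, was at 8.59 CPM in spleen with no count in blood (at least 50.3-fold), and its receptor CXCR5 was at 157 CPM in spleen and 2.22 CPM in blood. A segment named C-C motif chemokine 21-like (CCL21) was at 167 CPM in spleen with no count in blood (at least 976-fold), and its receptor CCR7 was at 33.97 CPM in spleen and 2.59 CPM in blood. CCL19, the other ligand of CCR7, was at 2.25 CPM in spleen and not called.

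Both sides of the adhesion pair of VCAM1 and integrin alpha-4 were higher in spleen. VCAM1, through which macrophages and stroma hold leukocytes, was at 1921 CPM on NextSeq and 1902 CPM on MiSeq in spleen, and 1.57 and 0 CPM in blood, the largest log2 ratio toward spleen of all segments compared when 1 CPM was added. Its fold without this addition was 1297 (885 to 1986), below the lower bounds of several genes with no count in blood. Integrin alpha-4 (ITGA4) was at 710.3 CPM in spleen and 17.6 CPM in blood. Its partner integrin beta-1 (ITGB1) was at 560.4 CPM in spleen and 93.7 CPM in blood. The macrophage growth factors IL34 and CSF1 were at 70.7 and 22.1 CPM in spleen and at 0.0854 and 0.0569 CPM in blood, respectively, and their shared receptor CSF1R was at 508 CPM in spleen and 12.4 CPM in blood. The lymphocyte exit receptor S1PR1 was at 43.9 CPM in spleen and 6.89 CPM in blood. The fractalkine-like ligand CX3CL1 was at 6.04 CPM in spleen and 10.6 CPM in blood. It lay on the opposite side from its receptor CX3CR1, a -like segment at 142 CPM in spleen and 3.24 CPM in blood. The ligand did not pass 4-fold on the CPM scale or with TMM factors but did with centred ratios.

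**Figure D5:**
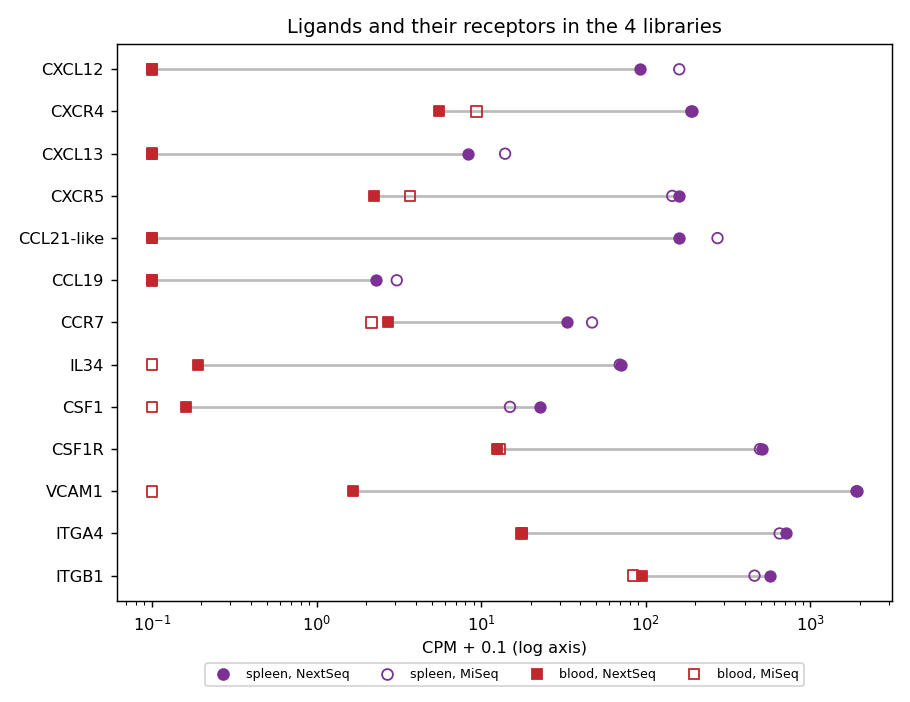
CPM with 0.1 added (log axis) of ligands and their receptors in the 4 libraries, with circles for spleen, squares for blood, filled symbols for NextSeq and open symbols for MiSeq. Ligands CXCL12, CXCL13, CCL21-like and CCL19 stand at 0 in both blood libraries, while the receptors CXCR4, CXCR5, CCR7, CSF1R and ITGA4 have counts there.

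Sensors of infection were divided. Of 24 pattern recognition and interferon members, 14 were higher in spleen (58.3%), 9 did not pass 4-fold and 1 was higher in blood. The endosomal receptors TLR3 and TLR7, which read RNA, were at 52.5 and 135 CPM in spleen and at 1.14 and 3.19 CPM in blood, respectively. TLR2 type-1, a receptor of bacterial lipoproteins, was nearer at 229.8 CPM in spleen and 103 CPM in blood. The RNA helicase IFIH1 was at 122 CPM in spleen and 153 CPM in blood. The factor IRF1 was at 255 CPM in spleen and 283 CPM in blood. The antiviral protein ZNFX1 was at 357 CPM in spleen and 343 CPM in blood. A TRIM25-like ligase was at 99.2 CPM in spleen and 259 CPM in blood, none of these past 4-fold. With TMM factors and with centred ratios the TRIM25-like segment passed 4-fold toward blood. Interleukin-1 beta (IL1B), the inflammatory cytokine, was the member higher in blood, at 6.53 CPM on NextSeq and 4.95 CPM on MiSeq in spleen, and 73.1 and 72.9 CPM in blood. An Mx-like GTPase (MX1) was at 38.4 CPM in spleen with no count in blood, at least 225-fold higher.

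Cell division genes were mostly higher in spleen, but several mitotic genes were not. Of 30 members compared, 22 were higher in spleen (73.3%) and 8 did not pass 4-fold. Ki-67 (MKI67), present in cycling cells, was at 356 CPM on NextSeq and 339.7 CPM on MiSeq in spleen, and 1.66 and 2.05 CPM in blood. Topoisomerase 2-alpha (TOP2A) was at 220.0 CPM in spleen and 3.22 CPM in blood. The spindle motor KIF11 was at 216 CPM in spleen and 9.45 CPM in blood. The condensin subunit SMC4 was at 307 CPM in spleen and 51.3 CPM in blood. The helicase subunits MCM2 to MCM6 had log2 ratios of 4.05, 4.99, 5.15, 4.74 and 4.64. In contrast BUB1 was at 75.5 CPM in spleen and 110.4 CPM in blood. CDC20 was at 73.2 CPM in spleen and 118 CPM in blood. Cyclin B2 (CCNB2) was at 57.6 CPM in spleen and 90.3 CPM in blood, each with more CPM in blood but under 4-fold. PCNA, the polymerase clamp, was at 87.5 CPM in spleen and 157 CPM in blood. Relative to the median of all segments PCNA, CDC20 and CCNB2 passed 4-fold toward blood, and with TMM factors PCNA alone.

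Genes of vessels and stroma were mostly higher in spleen. Of 25 members, 19 were higher in spleen (76%). Stabilin-2 (STAB2), a scavenger receptor of sinus endothelium, was at 482 CPM in spleen and 0.0569 CPM in blood. Cadherin-5 (CDH5), of endothelial junctions, was at 332 CPM in spleen and 0.228 CPM in blood. Smooth muscle actin (ACTA2) was at 325 CPM in spleen and 0.171 CPM in blood. TLX1 and NKX2-5, which pattern the spleen in mouse embryos, were both higher there. TLX1 was at 13.6 CPM in spleen and 0.0569 CPM in blood. NKX2-5 was at 11.4 CPM in spleen with no count in blood (at least 67.02-fold). LYVE1, a hyaluronan receptor of lymphatic vessels and some macrophages in mammals, was at 223 CPM in spleen and 426 CPM in blood. It was 1 of 2 members with more CPM in blood, and both passed 4-fold toward blood with TMM factors and with centring.

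Markers of other tissues were present in part. Of 13 hepatocyte members 11 were higher in spleen, with a summed level of 1785 CPM in spleen and 23.1 CPM in blood. Albumin (ALB) was at 834 CPM on NextSeq and 759.6 CPM on MiSeq in spleen, and 1.21 and 5.64 CPM in blood. Apolipoprotein B (APOB) was at 253 CPM in spleen and 0.455 CPM in blood. Transferrin (TF) was at 233 CPM in spleen and 9.45 CPM in blood. A transthyretin-like segment (TTR) was at 179.6 CPM in spleen and 0.142 CPM in blood. They stand beside the spleen results, and their part in these was not tested. Of 6 matched skeletal muscle members 5 were compared. Titin (TTN) alone was called, at 5.25 CPM in spleen and 0.484 CPM in blood. This call was lost with TMM and with centring, under which 0 and 2 members were higher in blood. Troponin C (TNNC2) was at 183 CPM in spleen and 214 CPM in blood. The paper lists TNNC2 as found in muscle alone, and the source of this difference was not tested. Nebulin (NEB) was at 3.58 CPM in spleen and 6.63 CPM in blood. Troponin T (TNNT3) was at 2.003 CPM in spleen and 4.98 CPM in blood. Of 7 neural members, GFAP, SNAP25, GAD1 and SLC17A6 lay under 1 CPM in both tissues. Synaptotagmin-1 (SYT1) was at 5.798 CPM in spleen with no count in blood. Neurofilament light chain (NEFL) was the exception, at 9.15 CPM on NextSeq and 11.9 CPM on MiSeq in spleen, and 300.1 and 352 CPM in blood.

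The largest ratios over all segments came partly from list members and partly from genes in no list. Toward spleen the 12 leading names, at 50 CPM or more and in order of the ratio, were VCAM1, epidermal differentiation-specific protein-like, C-C motif chemokine 3-like, TIMD4, J chain, C1s, stabilin-2, C1r, MARCO, laminin subunit beta-1, gap junction alpha-1 protein and Ig lambda chain V-1 region. Of these, VCAM1, TIMD4, J chain, stabilin-2, MARCO and Ig lambda chain V-1 region were already in the lists. C-C motif chemokine 3-like, an inflammatory chemokine, was at 848 CPM in spleen and 0.285 CPM in blood. The epidermal differentiation-specific protein-like segment was at 736 CPM in spleen with no count in blood, at least 4310.5-fold higher. Laminin subunit beta-1, of basement membranes, was at 426 CPM in spleen and 0.114 CPM in blood. Gap junction alpha-1 protein was at 369 CPM in spleen with no count in blood, at least 2160.0-fold higher.

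Toward blood the 12 leading names were CA2, ANK1, the kinase WNK4, KEL, SLC4A1, hemogen, ADD2, EPB42, hydroxyacylglutathione hydrolase-like protein, thaicobrin-like, RHAG and synemin. WNK4, a regulator of salt transport in the kidney, was at 0.637 CPM in spleen and 398 CPM in blood. Hydroxyacylglutathione hydrolase-like protein was at 1.03 and 362 CPM, and thaicobrin-like at 2.55 and 625 CPM, respectively. Synemin (SYNM), an intermediate filament protein known from chicken red cells, was at 29.8 CPM in spleen and 4817 CPM in blood. Its filament partner vimentin (VIM) was at 348 CPM in spleen and 776 CPM in blood. VIM did not pass 4-fold on the CPM scale but did with TMM factors and with centring. Of these 12 names, 8 were already in the erythroid lists, whose members were chosen with earlier results of these data known.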

How the data were processed

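Trunk blood and spleen were each 1 pool of RNA from 2 adult females, sequenced from stranded mRNA libraries on NextSeq and MiSeq. The authors mapped the reads to protein-coding segments of an assembly they had made, and the deposited values are expected counts in steps of 0.5, not normalized. Commas inside numbers were removed on reading. The authors' processing notes name Trimmomatic 0.36 and STAR 2.5.2a, while the methods name BWA-MEM for the mapping.

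The platforms of a tissue were summed, 9 hemoglobin subunit rows were set aside and the rest was scaled to CPM by the tissue total. A single count equals 0.0607 CPM in spleen and 0.0569 CPM in blood, and the floor of 3 counts is 0.182 and 0.171 CPM. Folds given as at least a value put this floor in place of 0 counts, and their 95% intervals reach somewhat lower. Segments with 1 CPM in either tissue were compared by the log2 ratio with 1 CPM added, called at 4-fold. Intervals are 95% Clopper-Pearson intervals on counts rounded to whole numbers. With 1 pool per tissue no test was run.

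Symbols of 21 lists (433 in all) were matched by protein name, since the table gives no symbols. This gave 332 symbols, 38 of them through a name ending in -like. For 56 with more than 1 segment, the segment with the most counts stands for the symbol. The other 101 symbols were not matched and are not analysed here, and 13 matched ones lay under 1 CPM in both tissues. Members and lists were chosen with earlier results of these data known, and the match to protein names was set with the table in view.

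Named genes are, in each list, the 4 members with the highest CPM in either tissue, those called against the majority of their list and those set side by side by role, and over all segments the 12 largest ratios each way at 50 CPM or more. Other list members and genes named in the text were chosen after their values were seen, and a few matched symbols enter the counts of their lists but are not reported singly here. Recomputed alternatives were a single platform, averaged platform CPM, hemoglobin kept in the totals, TMM factors (edgeR 4.0.16, R 4.3.3), totals without the 50 most abundant segments of each tissue, median centring, 0.5 or 5 CPM added, no minimum or 5 CPM, 2-fold or 8-fold, same-name segments summed and blood thinned to the spleen total. After seeing the data, 3 were added, namely the mitochondrial genome left out of the totals, all segments that match a symbol, and -like names left out. The ratio and its interval were tested on simulated counts, drawn from the spleen profile with counting error alone. Reads shared between segments and differences between birds were not simulated. The scripts used scipy 1.17.1, pandas 2.3.3 and numpy 2.4.6 in Python 3.11.15, and figures were drawn with matplotlib 3.10.9.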

Additional observations from a re-analysis of the deposited data

How the results depend on the processing

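The numbers of calls over all segments depended on scale and threshold. Calls higher in spleen went from 5174 to 3369 with TMM factors, 2368 with centring on the median, 3227 with 5 CPM added and 3237 at 8-fold. Calls higher in blood went from 921 to 480 with hemoglobin kept in the totals, 2125 with TMM, 2609 with centring, 1966 at 2-fold and 425 at 8-fold. Thrombocyte members higher in blood went from 6 to 3 with hemoglobin kept, 12 with TMM, 12 with centring and 2 at 8-fold. By construction TMM and centring move ratios toward blood. Hemoglobin in the totals moves them toward spleen, except for segments with few or no counts in blood. The 82 leukocyte calls toward spleen and the 21 erythroid calls toward blood stayed within 1.5 times under the alternatives run. With each platform alone, the spleen share of hemoglobin ranged from 0.324% to 0.421% of that of blood, calls higher in spleen from 5162 to 5176 and calls higher in blood from 920 to 1007. Of the 271 members and leading segments past 4-fold, 31 fell under it with TMM, 52 with centring and 11 with hemoglobin kept in the totals.

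No paired analysis was possible because the libraries of a tissue are the same pool on different platforms and no test was run. With 1 pool per tissue, differences between birds are unknown. Genes under 1 CPM on MiSeq rest on a single count or none. A gene without counts in blood may lie anywhere up to the floor of 0.171 CPM or somewhat above it. Levels printed for blood under 0.171 CPM rest on fewer than 3 counts, so folds read from them are loose.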

Other observations

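Gene families, gathered by protein name after the values were seen, divided between the tissues. Segments of the mitochondrial genome summed to 60162 CPM in spleen and 11900.0 CPM in blood, and 14 of 18 compared were higher in spleen (against 40.6% of all segments). Of 8 subunits of the TCP1 chaperonin, which folds actin and tubulin, 7 were higher in spleen (87.5%), with a median log2 ratio of 3.21. Of 28 collagens and laminins, 19 were higher in spleen (67.9%) and 1 in blood (3.57%, against 7.23% of all segments). Cytosolic ribosomal proteins lay below the median of all segments at a median log2 ratio of 0.41. Of 80, 9 were higher in spleen (11.25%, against 40.6% of all segments) and 2 in blood (2.5%).

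The machinery that tags and removes proteins leaned to blood relative to the median of all segments (1.44). The E3 ubiquitin-protein ligases had a median log2 ratio of 0.12, and summed to 10483 CPM in spleen and 26004 CPM in blood. Of 145, 38 were higher in spleen (26.2%, against 40.6% of all segments) and 20 higher in blood (13.8%, against 7.23%). Of 36 ubiquitin-conjugating enzymes 10 were higher in blood (27.8%) and 8 higher in spleen (22.2%), with a median of -0.92. Of 10 autophagy-related proteins 4 were higher in blood (40%) and 1 in spleen (10%), and their median was -1.33. Ubiquitin-specific hydrolases lay near the shares of all segments, with 17 of 50 higher in spleen (34%) and 5 in blood (10%). Of 30 proteasome subunits, 4 were higher in spleen and 4 in blood (13.3% each). The ligase subunit SKP1 was at 269 CPM in spleen and 6186 CPM in blood. Because these families were chosen for their values, they are descriptions only.

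Other genes with high levels in blood, also picked after their values were seen, were the cytoskeletal linker MACF1 at 391 CPM in spleen and 11346 CPM in blood, the kinase DYRK3 at 20.5 CPM in spleen and 2149.9 CPM in blood, the stress factor NRF2 (NFE2L2) at 91.3 CPM in spleen and 2212 CPM in blood and the chaperone HSPA2 at 258 CPM in spleen and 3040.4 CPM in blood. The macrophage erythroblast attacher MAEA, named for its role in holding red-cell precursors to macrophages in mammals, was at 221 CPM in spleen and 1543 CPM in blood, so that the higher level was in blood. Gallinacin-9, an antimicrobial peptide of birds, was at 123 CPM in spleen and 0.142 CPM in blood. The survival factor MCL1 was at 13.5 CPM in spleen and 202 CPM in blood and CD47, which protects red cells from uptake in mammals, was at 209 CPM in spleen and 399 CPM in blood, under 4-fold.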
